A study of Arabidopsis thaliana with 4 samples.

Results

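Jasmonate genes were followed in heat-treated Arabidopsis thaliana seedlings that lack a pair of class B heat shock factors. The set holds 48 loci, taken by locus name from the non-control probes of the arrays, out of 25665 loci that the arrays name. It comprises 12 JAZ repressors, 6 MYC and JAM transcription factors, the receptor subunit COI1 with the adaptor NINJA, 15 genes of jasmonate biosynthesis, 10 genes of jasmonate turnover and conversion, and 3 jasmonate-induced leaf genes. All 48 loci had a probe, and 42 passed the brightness filter and were tested among 19314 genes. The remaining 6, JAZ8, DAD1, DGL, AOC1, JOX1 and TAT3, were not well above background in either genotype on any array, so no difference in them was detectable here. All 42 tested members were well above background in all 8 samples.

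The mutant was the hsfb1 hsfb2b double mutant and the control was the wild type, both of the Columbia-0 (Col-0) ecotype. Seedlings were 5 d old, had grown at 23 °C on agar medium with sucrose in a long-day light cycle, and were harvested after their plates had stood under water of 32 °C for 30 min. Each of 4 two-colour arrays compared many mutant with many wild-type plants of 1 plate and was 1 biological replicate per the labels. The mutant carried the dye Cy3 on replicates 1 and 3 and Cy5 on replicates 2 and 4. The labels do not describe the alleles or how many plants were pooled. Every ratio below is mutant over wild type in heat, since unheated seedlings were not analysed here. HSFB1 (AT4G36990) and HSFB2B (AT4G11660), which encode repressing members of the heat shock factor family, were lower in the mutant at log2 ratios of -5.79 ± 0.03 and -4.68 ± 0.07 (SE, n = 4 arrays, limma adjusted p = 2.2e-10 and 1.7e-07). Per channel, 58.7% to 60.9% of spots passed the scanner's test against background, no spot was saturated, and the number of arrays limits the precision.

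Jasmonates are lipid hormones made from linolenic acid released from plastid membranes. Lipoxygenases, allene oxide synthase and allene oxide cyclases act in the plastid, and OPR3 and β-oxidation in the peroxisome complete jasmonic acid, which JAR1 joins to isoleucine. The conjugate binds COI1 together with JAZ proteins. The JAZ proteins are then degraded, which frees MYC factors that activate jasmonate-responsive genes, among them the JAZ genes, the biosynthesis genes and the enzymes that oxidise and inactivate the hormone. The pathway is best known for wounding and herbivore responses.

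Of the 42 members tested, 24 were higher and 4 were lower in the mutant (limma adjusted p under 0.05 over all genes), and 14 did not pass. This compares with 16.6% of all tested genes called higher and 13.1% called lower, or 29.8% in either direction, against 57.1% and 9.52% of the members. The median log2 ratio of the members was 0.26, while that of all genes was 0.00. In seedling RNA, fewer cells of a type and less RNA per cell cannot be told apart. Ratios were above 0 on every array used for 23 members and below 0 for 4, against 19.2% and 16.5% of all genes. Of the 42 tested members, 20 were called higher at a log2 ratio of 0.3 or more, against 4.78% of all tested genes. In the main fit, whose background correction pulls ratios of dim spots toward 0, JAZ1 alone was called higher at 2-fold or more. This compares with 0.109% of all tested genes. In the fit of the processed signals JAZ1 (1.16), JAZ5 (1.17), JAZ7 (1.37), MYC2 (1.00), LOX4 (1.71), AOC3 (1.15) and CYP94C1 (1.25) were called at that size. With median centring JAZ1 stood at 0.95, below 2-fold. No share of all genes is given for these other fits. The processed signals of the 4 mutant samples lay wholly above those of the 4 wild-type samples for 16 members and wholly below for 1, against 6.79% and 5.33% of all genes. When the channels were fitted separately, without the array as a pair, 7 of the 28 calls were kept (JAZ1, JAZ7, MYC2, OPR3, OPCL1, CYP94B1 and JOX2) and 21 were lost.

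**Figure D1:**
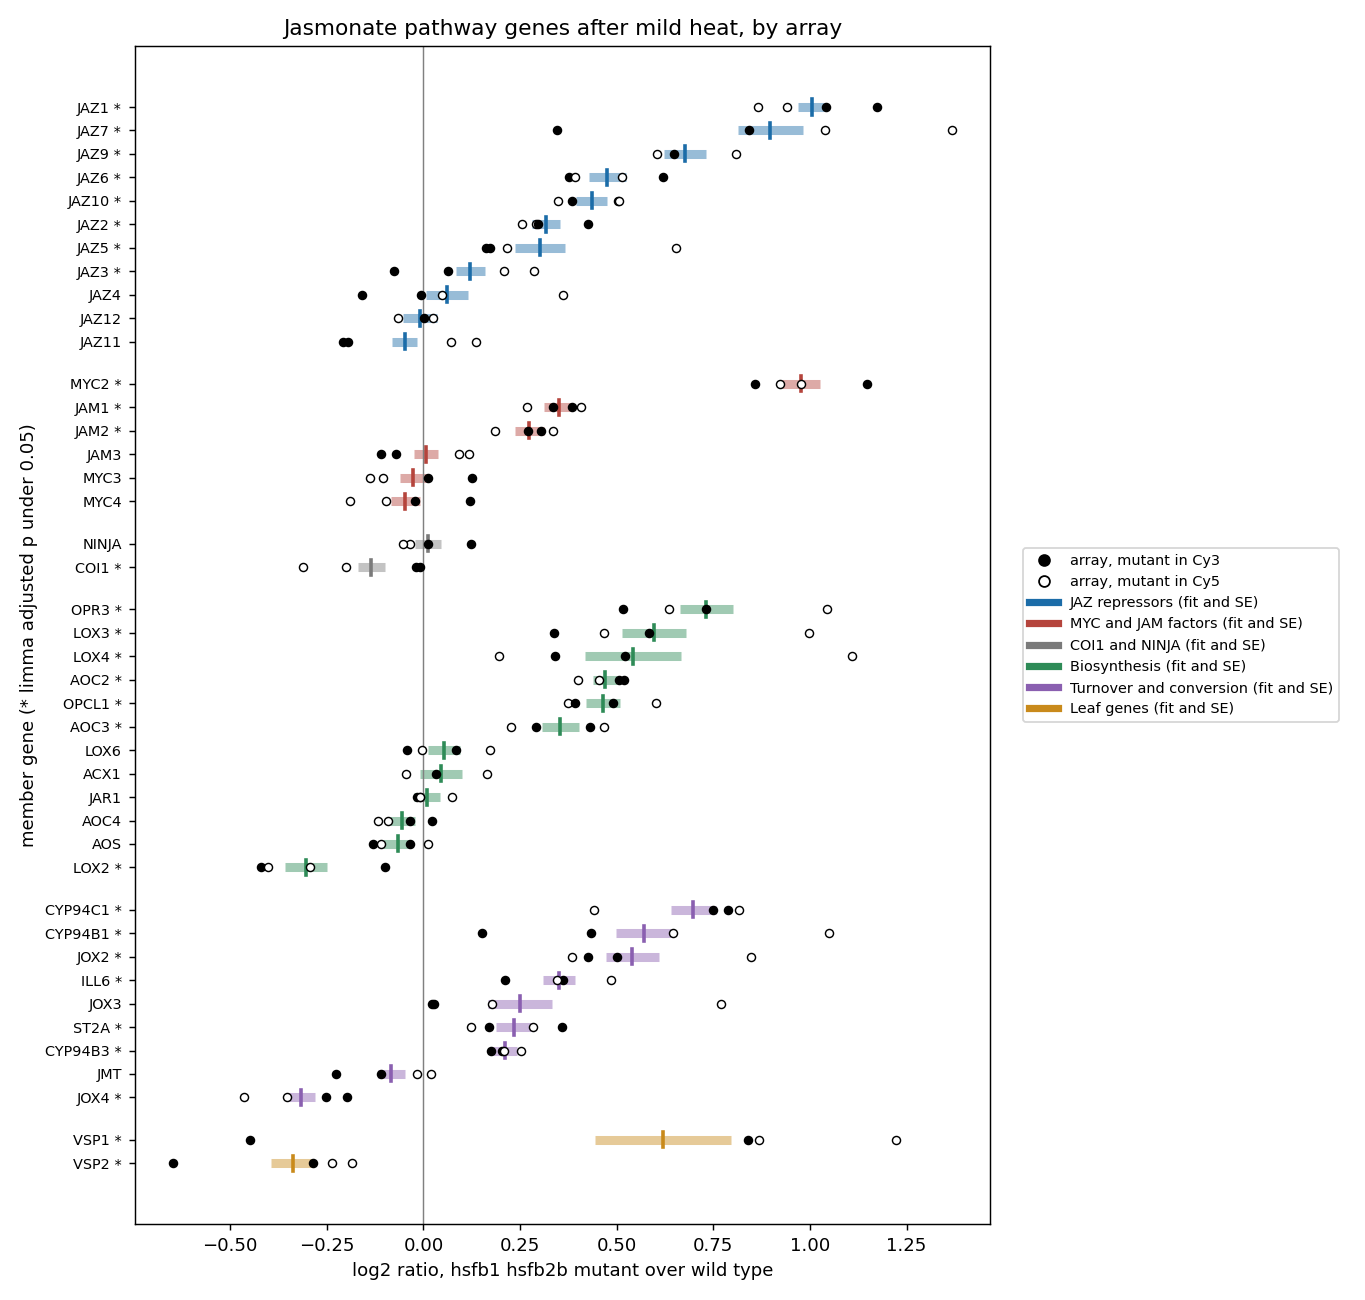
Log2 ratio of mutant over wild type for the 42 tested members, grouped by class. Filled points are arrays with the mutant in Cy3, open points arrays with the mutant in Cy5, the vertical tick is the fitted value and the bar its standard error; JAZ1 (1.01) and MYC2 (0.98) have all 4 arrays well to the right of 0, while VSP2 (-0.34), LOX2 (-0.30) and JOX4 (-0.32) have all 4 to the left.

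By class, higher members were found in all but the perception genes. Among JAZ repressors 8 of 11 tested genes were higher and none was lower, with a median log2 ratio of 0.32. Turnover and conversion genes had 6 of 9 higher and 1 lower, with a median of 0.25. Biosynthesis genes had 6 of 12 higher and 1 lower, with a median of 0.20, and MYC and JAM factors had 3 of 6 higher and a median of 0.14. COI1 and NINJA had a median of -0.06, and the leaf genes VSP1 and VSP2 passed the threshold in opposite directions. On single arrays the class medians ran from 0.23 to 0.47 for JAZ repressors, from 0.14 to 0.23 for the factors, from 0.18 to 0.31 for biosynthesis and from 0.17 to 0.49 for turnover. These ranges overlapped, except that the factors lay below the lowest JAZ value, and the differences between classes were not tested.

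**Figure D2:**
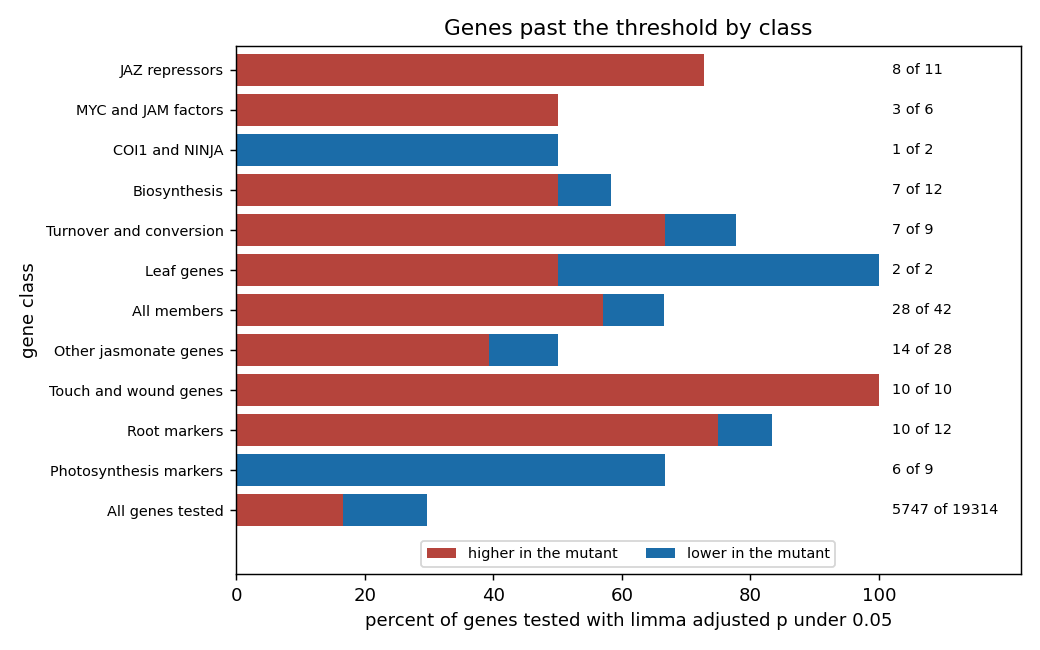
Percent of tested genes with a limma adjusted p under 0.05 in each class and list, higher (red) and lower (blue) in the mutant, with the count called of the number tested at the right. JAZ repressors reach 72.7% higher and turnover genes 66.7%, while all genes stand at 16.6% higher and 13.1% lower.

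JAZ1 (AT1G19180), a repressor that jasmonate itself induces, showed the largest difference of the members. Its processed signal in replicates 1 to 4 was 2283, 1889, 2714 and 2824 units in the mutant and 880.2, 851, 1251 and 1404 units in the wild type, so the genotypes did not overlap. The log2 ratios were 1.17, 0.87, 1.04 and 0.94, and the fit gave 1.01 ± 0.04 (SE, n = 4 arrays, limma adjusted p = 2.2e-05), a 2.01-fold difference that ranked 21 of 19314 from the highest. In the fit of the processed signals JAZ1 stood at 1.16, below LOX4 (1.71), JAZ7 (1.37), CYP94C1 (1.25) and JAZ5 (1.17). JAZ7 (AT2G34600), a member that lacks the canonical degron, had log2 ratios of 0.84, 1.04, 0.34 and 1.37 and a fitted value of 0.90 ± 0.08 (limma adjusted p = 0.00041). Its arrays spread widely, yet all mutant signals lay above all wild-type signals.

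JAZ9 (AT1G70700) had log2 ratios of 0.65, 0.60 and 0.81 on replicates 1, 2 and 4 and a fitted 0.68 ± 0.05 (n = 3 arrays, limma adjusted p = 0.00042). Its spot on replicate 3 was marked as an outlier and left out, and that array showed no rise, with a ratio of 0.02 and processed signals of 7342 units in the mutant and 8011 in the wild type. With that spot kept the fit gave 0.52 ± 0.09 (limma adjusted p = 0.0063), and the call was lost in the centred series values (0.51). JAZ6 (AT1G72450) had 0.62, 0.51, 0.38 and 0.39, and JAZ10 (AT5G13220), which gives rise to splice forms that resist degradation, had 0.50, 0.35, 0.38 and 0.50. Their fitted values were 0.48 ± 0.05 and 0.44 ± 0.04. The other JAZ10 probe read 0.58, 0.28, 0.13 and 0.67, also above 0 on every array. JAZ2 (AT1G74950) was close between arrays at 0.43, 0.29, 0.30 and 0.26, with a fitted 0.32 ± 0.04.

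JAZ5 (AT1G17380) stood at 0.16, 0.22, 0.17 and 0.65, so replicate 4 lay far above the others. Its fitted 0.30 ± 0.06 (limma adjusted p = 0.013) lost the call without replicate 1 or 3 (0.30 in both) and without the dye term (limma adjusted p = 0.085), and was 0.19 without replicate 4. JAZ3 (AT3G17860) had a fitted 0.12 ± 0.04 with a limma adjusted p of 0.047 and a ratio below 0 on replicate 3. With the mutant in Cy3 the mean ratio of JAZ3 was -0.01, and in Cy5 it was 0.25. Its call was lost in 9 of 15 alternatives: without replicate 1 (0.09), 3 (0.16) or 4 (0.10), with median centring (0.12), at a background offset of 0 (0.13), in the centred series values (0.17), without the dye term, without the filter on dim probes and with separate channels. It stood at 0.25 in the uncentred series values. JAZ4, JAZ11 and JAZ12 did not pass and had values of 0.06, -0.05 and -0.01. JAZ4 passed without replicate 2 (0.14), and JAZ11 passed as lower in the processed signals (-0.18). The signals of JAZ5, JAZ7 and JAZ10 were low, at 27.1 to 294 units in the wild type. In the fit of the processed signals these genes stood at 1.17, 1.37 and 0.72.

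The 3 MYC factors of the set differed from each other. MYC2 (AT1G32640), the main activator of the jasmonate response, had processed signals of 9034, 7733, 8231.5 and 9825 units in the mutant against 3899, 3849, 4465 and 5215 units in the wild type. The genotypes did not overlap, and the log2 ratios were 1.15, 0.98, 0.86 and 0.92. The fitted value was 0.98 ± 0.05 (SE, n = 4 arrays, limma adjusted p = 5.4e-05), 1.97-fold higher. MYC3 (AT5G46760) and MYC4 (AT4G17880), which share targets with MYC2, did not pass, at -0.03 ± 0.03 and -0.05 ± 0.04 (limma adjusted p = 0.61 and 0.39). On each of the 4 arrays MYC2 had the higher ratio, by 0.85 to 1.08 over MYC3 and by 0.74 to 1.17 over MYC4. These pairs were chosen with the values known, so the differences carry no test.

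The JAM factors are related proteins that repress the targets of MYC2. JAM1 (AT2G46510) had log2 ratios of 0.38, 0.41, 0.34 and 0.27, with a fitted 0.35 ± 0.04 (limma adjusted p = 0.00068). JAM2 (AT1G01260) had a fitted 0.27 ± 0.04 (limma adjusted p = 0.0020) with arrays from 0.18 to 0.34. JAM3 (AT4G16430) stood at 0.01 ± 0.03 and did not pass. Of the perception genes, COI1 (AT2G39940), the F-box subunit of the receptor, was lower by a small amount, with ratios of -0.01, -0.20, -0.02 and -0.31. Its fitted -0.14 ± 0.03 (limma adjusted p = 0.024) lost the call without replicate 1 (-0.14), 3 (-0.13) or 4 (-0.11) and without the dye term. The value was -0.06 in the uncentred series values, and the call passed in 6 of 15 alternatives. With the mutant in Cy3 the mean ratio of COI1 was -0.02, and in Cy5 it was -0.26. NINJA (AT4G28910), which links JAZ proteins to the corepressor TOPLESS, stood at 0.01 ± 0.03.

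Along the biosynthesis route, differences were seen at the lipoxygenase, cyclase, reductase and ligase steps. The lipoxygenases, which oxygenate linolenic acid, split by gene. LOX3 (AT1G17420) had log2 ratios of 0.34, 0.47, 0.58 and 1.00 and LOX4 (AT1G72520) had 0.34, 0.19, 0.52 and 1.11, and both were above 0 on every array. The fitted values were 0.60 ± 0.08 and 0.54 ± 0.12 (limma adjusted p = 0.0021 and 0.016). LOX4 lost its call without replicate 1 (0.59) or 3 (0.50) and without the dye term (limma adjusted p = 0.060), and was 0.31 without replicate 4, and its low signals, 19.2 to 43.8 units in the wild type, gave 1.71 in the processed signals.

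LOX2 (AT3G45140), the abundant leaf lipoxygenase, went the other way. Its processed signals were 16364, 13660, 16621 and 14834 units in the mutant and 20799, 17819, 16760 and 21235 units in the wild type. The mutant lay below the wild type without overlap, although replicate 3 differed little. The log2 ratios were -0.42, -0.29, -0.10 and -0.40, with a fitted -0.30 ± 0.05 (limma adjusted p = 0.0061), or 1.23-fold lower, and the call was lost in the uncentred series values (-0.23). LOX6 (AT1G67560) did not pass, at 0.05 ± 0.04. The LOX3 ratio exceeded that of LOX2 on all 4 arrays, by 0.68 to 1.40.

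AOS (AT5G42650), the single allene oxide synthase gene, was bright in both genotypes and did not pass, at -0.07 ± 0.04 (limma adjusted p = 0.22). AOC1, AOC2 and AOC3, adjacent genes on chromosome 3 that encode allene oxide cyclases, could be read for AOC2 and AOC3. AOC2 (AT3G25770) had log2 ratios of 0.51, 0.40, 0.52 and 0.45, and AOC3 (AT3G25780) had 0.29, 0.23, 0.43 and 0.47. Their fitted values were 0.47 ± 0.03 and 0.35 ± 0.05 (limma adjusted p = 0.00013 and 0.0019). The cyclase genes are close in sequence and the probe sequences were not used here, so signal shared between them cannot be told apart. AOC4 (AT1G13280), on chromosome 1, stood at -0.06 ± 0.03 and did not pass. In the processed signals AOC3, whose wild-type signals were 28.9 to 52.9 units, stood at 1.15. AOC2 stood at 0.73 in the uncentred series values.

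OPR3 (AT2G06050), the peroxisomal reductase that commits the route to jasmonic acid, had the largest difference of the biosynthesis genes. Its processed signals were 6279, 5293, 5365 and 7014 units in the mutant and 3590.2, 3372, 3567 and 3363 units in the wild type. The wild-type samples were nearly equal and all mutant samples lay above them. The log2 ratios of 0.73, 0.63, 0.52 and 1.04 gave a fitted 0.73 ± 0.07 (limma adjusted p = 0.00041), 1.66-fold higher. In the fit of the processed signals OPR3 stood at 0.78, below LOX4 (1.71) and AOC3 (1.15). OPCL1 (AT1G20510), which activates the OPR3 product as a CoA ester, had 0.49, 0.37, 0.39 and 0.60 and a fitted 0.46 ± 0.04 (limma adjusted p = 0.00048). The following steps did not pass: ACX1 (AT4G16760), a β-oxidation enzyme, stood at 0.05 ± 0.05 on 3 arrays, and JAR1 (AT2G46370), which forms the active isoleucine conjugate, at 0.01 ± 0.03.

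**Figure D3:**
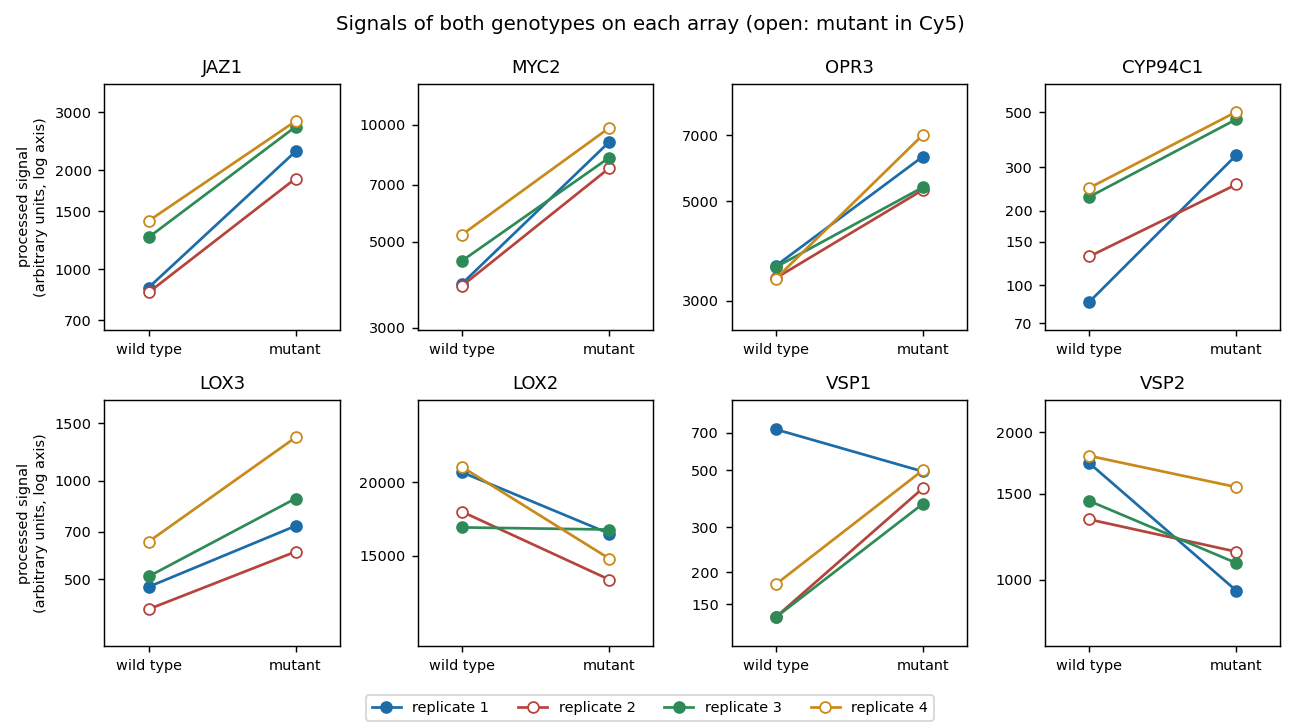
Processed signals (arbitrary units, log axis with its own range in each panel) of wild type and mutant for 8 members, with a line for each of the 4 arrays. JAZ1, MYC2, OPR3, CYP94C1 and LOX3 slope upward on every array, LOX2 lies lower in the mutant on 3 arrays and is nearly level on replicate 3, and VSP1 slopes upward except on replicate 1, whose wild type reads 723 units.

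Among the genes that inactivate the hormone, the cytochrome P450 genes that hydroxylate or carboxylate the isoleucine conjugate were higher. CYP94C1 (AT2G27690), which forms the carboxylated product, had processed signals of 336, 255, 469 and 502 units in the mutant and 85.6, 131, 228 and 247 units in the wild type. The genotypes were separate, and the log2 ratios were 0.79, 0.44, 0.75 and 0.82. The fitted value was 0.70 ± 0.06 (SE, n = 4 arrays, limma adjusted p = 0.00027), 1.62-fold higher, and 1.25 in the processed signals. CYP94B1 (AT5G63450) had 0.15, 0.65, 0.43 and 1.05, with a fitted 0.57 ± 0.07 (limma adjusted p = 0.0014) and 0.93 in the processed signals. Its dye effect also passed the threshold (limma adjusted p = 0.038). CYP94B3 (AT3G48520), the hydroxylase of the conjugate, differed least, at 0.21 ± 0.03 (limma adjusted p = 0.0032), with arrays from 0.17 to 0.25, and lost its call with median centring (0.15).

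ILL6 (AT1G44350), an amidohydrolase that cleaves the conjugate, had log2 ratios of 0.36, 0.35, 0.21 and 0.49 and a fitted 0.35 ± 0.04 (limma adjusted p = 0.0011). ST2A (AT5G07010), a sulfotransferase acting on hydroxylated jasmonate, had a fitted 0.23 ± 0.04 (limma adjusted p = 0.0083). Its call was lost without replicate 3 (0.19), and the value was 0.75 in the processed signals. JMT (AT1G19640), which makes the methyl ester, did not pass, at -0.08 ± 0.04.

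The jasmonate oxidases, which hydroxylate free jasmonic acid, split like the lipoxygenases. JOX2 (AT5G05600) had log2 ratios of 0.42, 0.38, 0.50 and 0.85 and was higher, at 0.54 ± 0.07 (limma adjusted p = 0.0015), and stood at 0.98 in the processed signals. JOX4 (AT2G38240) had -0.25, -0.35, -0.20 and -0.46, below 0 on every array, and was lower, at -0.32 ± 0.04 (limma adjusted p = 0.00086), or 1.25-fold. Its other probe was well above background in 1 of the 8 samples and was not tested. JOX3 (AT3G55970) had 0.02, 0.18, 0.03 and 0.77, with a fitted 0.25 ± 0.08 that did not pass (limma adjusted p = 0.059). It passed in 6 of 15 alternatives, among them without replicate 2 (0.40), and stood at 0.10 without replicate 4 and at 0.52 in the processed signals. The JOX2 ratio exceeded that of JOX4 on all 4 arrays, by 0.68 to 1.31.

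The vegetative storage protein genes VSP1 (AT5G24780) and VSP2 (AT5G24770), which lie near each other on chromosome 5 with 1 annotated gene between them, are classical jasmonate-induced leaf genes. VSP1 had processed signals of 495, 425, 369.6 and 500 units in the mutant and 723, 134, 133 and 179 units in the wild type. The wild type of replicate 1 was above every mutant sample, while the other 3 were below every mutant sample. The log2 ratios were therefore -0.45, 0.87, 0.84 and 1.22, and the fitted 0.62 ± 0.18 (limma adjusted p = 0.035) was 0.94 without replicate 1 and lost its call without replicate 3 (0.30). The processed signals gave 1.02 and no call, and the call was also lost in both forms of the deposited series values, at a background offset of 0 (0.72) and without the dye term.

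VSP2 had processed signals of 949, 1141, 1081 and 1546 units in the mutant and 1730.2, 1328, 1448 and 1791 units in the wild type, which overlapped between plates. Within every array the mutant was lower, with log2 ratios of -0.65, -0.19, -0.29 and -0.24 and a fitted -0.34 ± 0.06 (limma adjusted p = 0.0047), or 1.26-fold. Replicate 1 had the lowest ratio for both genes, and the VSP1 ratio exceeded the VSP2 ratio on all 4 arrays, by 0.20 to 1.46. VSP1 and VSP2 are close in sequence, so signal shared between their probes cannot be told apart.

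Another 35 genes of the pathway and its outputs were listed beside the members, of which 28 were tested. Here 11 were higher, 3 were lower and 14 did not pass, with a median log2 ratio of 0.09. The shares were 39.3% higher and 10.7% lower, against 16.6% and 13.1% of all tested genes. Lower calls were therefore no more frequent in this list than over all genes. ANAC055 and ANAC019, NAC factors induced downstream of MYC2, had 0.71 ± 0.06 and 0.46 ± 0.07 (SE, n = 4 arrays, limma adjusted p = 0.00035 and 0.0026), and ANAC019 stood at 0.92 in the processed signals. PDF1.2, a defensin gene of the branch shared with ethylene, is among the 11 but passed the brightness filter through the mutant alone, with the wild type well above background on 3 of 4 arrays, so its call is no support and no size is given. LOX1, a lipoxygenase outside the jasmonate route, had 0.49 ± 0.06, and the jasmonate transporter gene JAT1 had 0.29 ± 0.03 and 0.53 in the processed signals. CLH1, a chlorophyllase gene, and OPR1, a reductase related to OPR3, had 0.24 ± 0.05 and 0.23 ± 0.04. OPR1 was below 0 on both arrays with the mutant in Cy5 and lost its call with median centring (0.15) or when the dye term was dropped. CLH1 lost its call with median centring (0.18) and without replicate 3 (0.22).

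The 3 lower genes, FAD3, FAD7 and FAD8, encode the desaturases that make linolenic acid, the starting fatty acid of the route. Their log2 ratios were small, at -0.19 ± 0.04, -0.16 ± 0.04 and -0.15 ± 0.04 (limma adjusted p = 0.014, 0.033 and 0.030), with 3 arrays for FAD7. The FAD3 call was lost without replicate 1 (-0.16) and that of FAD8 without replicate 1 (-0.10). The FAD7 spot on replicate 3 was marked as an outlier and left out. With it kept, at a ratio of -0.31, the fit gave -0.19 (limma adjusted p = 0.0085), and the call was lost in the fit without that array (-0.16). FAD7 and FAD8 each lost the call in 8 alternatives, which include median centring (-0.17 and -0.22), an offset of 0 (-0.16 and -0.15), the processed signals (-0.16 in both), the centred series values (-0.23 and -0.16) and the fit without the dye term. FAD3 also lost its call without the dye term. In the uncentred series values none of the 3 passed (-0.12, -0.15 and -0.08). The β-oxidation genes PXA1, KAT2, AIM1, MFP2 and ACX5 did not pass, with values from 0.00 to 0.08, as for ACX1 among the members.

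Other gene lists that moved on the same arrays are given beside these results. The lists were chosen with earlier results of these data known. Of all tested genes, 16.6% were called higher and 13.1% lower. Of 10 rapid touch and wound response genes, which include early factors such as WRKY40 and ZAT12, all 10 were called higher. ERF109 is among the 10 but passed the brightness filter through the mutant alone, so its call is no support. Its wild type was well above background on 2 of 4 arrays. The list, with ERF109 included, had a median log2 ratio of 0.48. Its summed processed signals were 197200 to 255100 units in the mutant against 142200 to 199700 in the wild type. Of 12 root markers 9 were higher and 1 was lower, with a median of 0.33 and sums of 17190 to 23360 against 17020 to 19170 units. The log2 ratios of these sums were 0.34, 0.14, 0.42 and -0.05 on replicates 1 to 4. The dye effect passed the threshold for 4 of the 12. PHT1;1, among the 9, had ratios of 0.46, -0.05, 0.60 and -0.32. Of 9 photosynthesis markers 6 were called lower, with a median of -0.15 and sums of 1303000 to 1783000 against 1373000 to 1925000 units. The direction changed with the dye, as 8 of the 9 were below 0 with the mutant in Cy3 and above 0 in Cy5. The log2 ratios of their sums were -0.45, 0.23, -0.32 and 0.12 on replicates 1 to 4. None of these 31 markers was dim in every sample of both genotypes. Their part in the jasmonate results was not tested.

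Dye and replicate affected the members unequally. The gene-wise dye effect passed the threshold for 3 of 42 members (JAZ7, JAZ11 and CYP94B1), against 18.1% of all genes, and for 8 of the 9 photosynthesis markers. Across members, ratios on pairs of arrays correlated at 0.61 to 0.88, as a description over 42 genes that share the same plates, and at 0.35 to 0.80 over all genes. Of the 23 higher members with 4 ratios, 15 had their highest ratio on replicate 4, or 65.2%, compared with 37% of all higher genes. Without replicate 4, when 39 members were tested, 22 members were higher and 3 were lower.

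**Figure D4:**
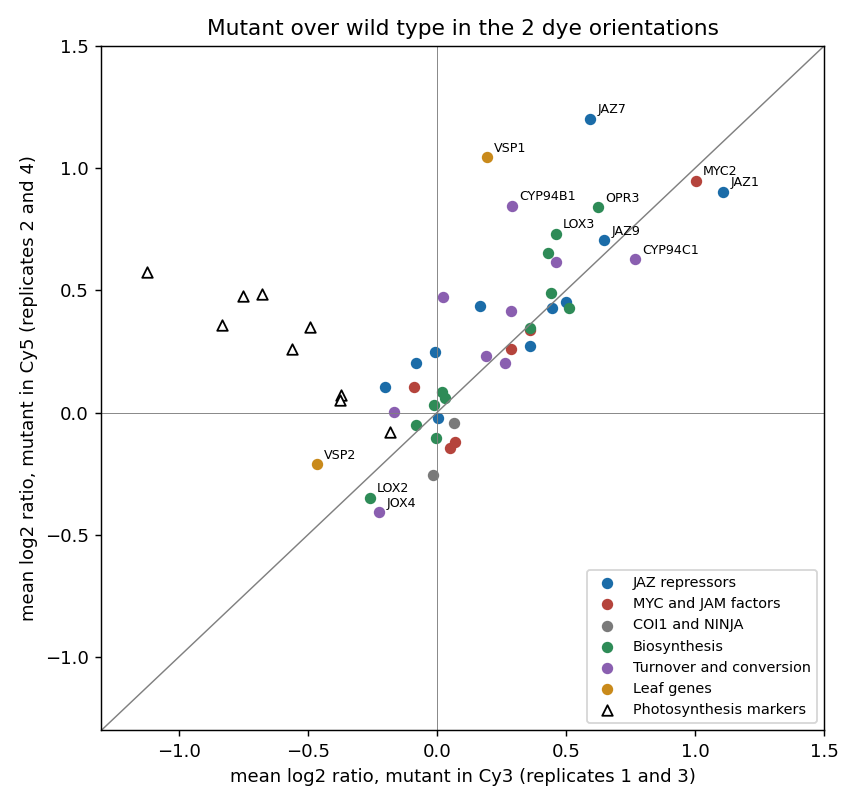
Mean log2 ratio of each tested member with the mutant in Cy3 (x axis, replicates 1 and 3) and in Cy5 (y axis, replicates 2 and 4), with the 9 photosynthesis markers as triangles; the grey diagonal marks equal values. MYC2 (1.00 and 0.95) and JAZ1 (1.11 and 0.90) lie near the diagonal, VSP1 (0.19 and 1.05) and CYP94B1 (0.29 and 0.85) lie above it, and 8 of the 9 triangles fall below 0 in Cy3 and above 0 in Cy5.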

How the data were processed

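Total RNA of both genotypes was hybridised to 4 arrays on 1 slide with 1 scan. Spot and local background values are median intensity values, deposited without normalization per the file headers. Processed signals are intensity values after Feature Extraction (version 9.1.3.1, per the submitters' processing notes) had subtracted background and normalized dyes. The log10 ratio of red over green was deposited with them per the file headers. The deposited series values are natural log ratios. They matched the scanner ratio turned to mutant over wild type plus an offset of 0.0563 on every array (r of 1 in size, probes above 500 units). No source used here states why.

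Background was corrected by normexp (offset 50, which pulls ratios of dim spots toward 0), and ratios were normalized by loess. Outlier-marked spots (190 to 399 of 37685 per array) were left out. Probes were kept if they were well above background in all 4 samples of a genotype and had at least 3 ratios. The brightest of the kept probes of each locus was then tested. In limma 3.58.1 under R 4.3.3 each gene received a genotype and a dye coefficient, with Benjamini-Hochberg adjustment over 19314 genes at 0.05, two-sided. The array is the pair. On simulated data with this design, 200 of 19314 genes were changed. The test recovered 41% of genes changed by 0.3 and 79% of those changed by 0.6 on the log2 scale, with 1 false call among 121. The data gave 5747 calls, so the p cut-off after adjustment differed and these rates need not hold for the data. Symbols follow RefSeq (TAIR10.1) or common usage, and all 48 loci matched. Members and lists were chosen with earlier results of these data known. All members may be named, with array values for those past the threshold at an absolute log2 ratio of 0.3 or more and for lower members. Of the other pathway genes, the 8 largest calls and genes of the fatty acid and β-oxidation steps were named.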

Additional observations from a re-analysis of the deposited data

Results flagged for a closer look

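In 4 of 58 comparisons across the 4 arrays (48 named genes with ratios on all 4 arrays, which are not the 48 members, and 10 class or list medians), 1 array lay far from the other 3 relative to the whole range. Chance flags about 1 in 20 such groups. JAZ5 had a log2 ratio of 0.65 on replicate 4, against 0.16 to 0.22 on the others. JAR1 had 0.073 on replicate 2, against -0.018 to -0.0085. LOX1, one of the other pathway genes, had 0.77 on replicate 3, against 0.37 to 0.43. The median of the turnover and conversion genes was 0.49 on replicate 4, against 0.17 to 0.21.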

How the results depend on the processing

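No called member changed sign in any of the 15 alternatives. Excluding the separate-channel fit and the fits without 1 array, 23 to 28 of the 28 calls were kept. Slide could not be fitted as a block because all arrays shared 1 slide. Genes dim in both genotypes set the limit of what could be tested. The separate-channel fit with no replicate block called 544 genes, 7 members as higher and 0 as lower (0 in limma after adjustment), against 5747, 24 and 4 with arrays as pairs. The count over all genes was 2547 with median centring and 1826 without the dye effect, and ran from 2194 to 5809 without 1 array. Without 1 array, when 39 to 41 members were tested, 19 to 25 members were higher and 3 to 4 lower. Of called genes, 45.5% were higher with median centring, 68% without the dye effect and 79.9% in the uncentred series values, against 55.8%. Class medians moved by more than the spread between arrays as follows. The median of JAZ repressors was 0.49 without background correction, 0.50 with processed signals, 0.58 for uncentred and 0.50 for centred series values. That of MYC and JAM factors was 0.088 with median centring and 0.20 in the series values. That of biosynthesis was 0.27 at an offset of 0 and without background correction, 0.28 with processed signals, 0.36 and 0.29 for uncentred and centred series values, 0.046 without the filter on dim probes, which adds 3 dim genes, and 0.22 to 0.41 without 1 array. That of turnover genes was 0.52 with processed signals, and 0.60 and 0.52 for uncentred and centred series values. Root markers stood at 0.43 without background correction, 0.53 with processed signals, and 0.61 and 0.54 for uncentred and centred series values. Other pathway genes stood at 0.18 and touch and wound genes at 0.60 in the uncentred series values, and the latter at 0.45 to 0.59 without 1 array. Leaving out 1 array also changed the genes tested, since ACX1 and TCH2 had only 3 ratios. ACX1 dropped out of biosynthesis without replicate 2, 3 or 4, and TCH2 out of the touch and wound list without replicate 1, 2 or 3. In the uncentred series values, whose median over all genes was 0.066, 2 members were lower. Uncalled members changed sign near 0. With median centring JAM3 was -0.058, NINJA -0.061, ACX1 -0.13 and JAR1 -0.074. JAM3 was -0.054 in the processed signals and -0.051 in the centred series values, and in the uncentred ones JAZ12 was 0.035, MYC3 0.030 and AOS 0.042. JAZ12 was 0.0045 with marked spots kept. Without 1 array JAZ4 ran from -0.017 to 0.14, MYC3 from -0.055 to 0.0027, JAM3 from -0.0034 to 0.017, NINJA from -0.015 to 0.039 and JAR1 from -0.011 to 0.030. The causes of these shifts were not tested.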
